A study of Mus musculus with 10 samples.

Results

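The guanylate-binding proteins are large GTPases of the dynamin superfamily, and the 10 mouse genes Gbp2 to Gbp11 were taken by their gene symbols from the 54532 genes of the deposited expression table. All 10 were found, and all 10 passed the filter on low values that left 20448 genes to test. Whole lungs of wild-type C57BL/6J mice were compared at postnatal day 30 (P30), 5 from the increased pulmonary flow (IPF) group and 5 from the sham group. At P7 every pup was anesthetized with isoflurane and opened by a midline laparotomy. In the IPF group a needle then opened the abdominal aorta into the neighbouring vena cava, an aortocaval fistula that returns more blood to the right heart and the lungs, while the sham group had every other step. Pups of both sexes were used according to the study's methods, and the labels give no sex, litter or time of day for a sequenced lung. Xist was at 26.8 to 43.2 FPKM in the IPF libraries and at most 0.0767 FPKM in the sham libraries, and the Y-linked gene Ddx3y had 0 reads in the IPF libraries and 14.3 to 21.4 FPKM in the sham libraries, so sex and surgery cannot be told apart. The values are FPKM, the fragments on a gene scaled by its length and by library size, so that levels can be set side by side between genes.

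Gbp genes are transcribed at low levels in resting cells and are induced strongly by interferons, above all by interferon-γ acting through IRF1 and other transcription factors. Their proteins gather on vacuoles and bacteria inside cells, where they help to break the membrane around the invader and to switch on inflammasomes, the complexes that activate caspase-1 and caspase-11. In the lung they are made by macrophages, endothelium, epithelium and lymphocytes, so that a whole-lung value sums over many cell types.

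In the mouse genome build GRCm38, on which the table's positions lie, the family sits in 2 clusters. Gbp5 (ENSMUSG00000105504, 142493978 to 142522344), Gbp7 (ENSMUSG00000040253, 142530342 to 142550149), Gbp3 (ENSMUSG00000028268, 142560026 to 142573209) and Gbp2 (ENSMUSG00000028270, 142620602 to 142638008) follow each other on the plus strand of chromosome 3. Gbp8 (ENSMUSG00000034438, 105014150 to 105139540), Gbp9 (ENSMUSG00000029298, 105077630 to 105139539), Gbp4 (ENSMUSG00000079363, 105115767 to 105139586), Gbp10 (ENSMUSG00000105096, 105215699 to 105239533), Gbp6 (ENSMUSG00000104713, 105270702 to 105293698) and Gbp11 (ENSMUSG00000092021, 105323042 to 105346472) lie on the minus strand of chromosome 5. Gbp11 is annotated as a polymorphic pseudogene and the other 9 as protein-coding genes. Gbp2b (ENSMUSG00000040264), once named Gbp1, lies between Gbp3 and Gbp2, does not belong to the 10, and is given beside them.

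The promoters of the chromosome 3 genes are shown because no window was available for the chromosome 5 members. They were searched for the DNA element that interferon-activated factors bind. RefSeq sequences of GRCm38.p6 from 250 bases before to 50 bases after the start site were available for 4 of the 10 members and for Gbp2b. They are read 5′ to 3′ on the plus strand, the strand of the genes, and capitals mark matches to the interferon-stimulated response element (ISRE), searched on both strands as GAAA, any 2 bases and GAAA again. The windows are chr3:142496684-142496983 for Gbp5, chr3:142530086-142530385 for Gbp7, chr3:142559794-142560093 for Gbp3, chr3:142594597-142594896 for Gbp2b and chr3:142620413-142620712 for Gbp2.
Gbp5: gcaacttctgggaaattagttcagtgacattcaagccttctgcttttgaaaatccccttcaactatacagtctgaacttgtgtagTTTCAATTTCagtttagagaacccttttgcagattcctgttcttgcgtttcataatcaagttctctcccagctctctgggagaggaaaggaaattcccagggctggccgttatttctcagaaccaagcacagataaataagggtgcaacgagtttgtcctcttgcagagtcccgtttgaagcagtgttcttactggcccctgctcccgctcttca
Gbp7: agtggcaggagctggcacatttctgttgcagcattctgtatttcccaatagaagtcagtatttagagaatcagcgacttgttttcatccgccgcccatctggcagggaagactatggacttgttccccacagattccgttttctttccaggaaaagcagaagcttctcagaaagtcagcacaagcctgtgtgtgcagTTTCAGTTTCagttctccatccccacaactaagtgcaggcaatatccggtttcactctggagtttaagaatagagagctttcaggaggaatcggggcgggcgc
Gbp3: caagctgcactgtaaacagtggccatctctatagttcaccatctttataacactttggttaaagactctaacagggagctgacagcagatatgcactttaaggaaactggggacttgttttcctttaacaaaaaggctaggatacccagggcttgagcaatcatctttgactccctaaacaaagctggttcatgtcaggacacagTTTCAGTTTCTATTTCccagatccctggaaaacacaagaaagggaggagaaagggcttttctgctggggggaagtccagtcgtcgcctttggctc
Gbp2b: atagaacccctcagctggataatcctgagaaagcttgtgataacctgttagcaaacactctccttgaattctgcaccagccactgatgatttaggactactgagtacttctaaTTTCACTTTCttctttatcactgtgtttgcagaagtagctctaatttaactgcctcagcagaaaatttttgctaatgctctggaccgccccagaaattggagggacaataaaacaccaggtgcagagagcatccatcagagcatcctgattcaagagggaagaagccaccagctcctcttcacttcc
Gbp2: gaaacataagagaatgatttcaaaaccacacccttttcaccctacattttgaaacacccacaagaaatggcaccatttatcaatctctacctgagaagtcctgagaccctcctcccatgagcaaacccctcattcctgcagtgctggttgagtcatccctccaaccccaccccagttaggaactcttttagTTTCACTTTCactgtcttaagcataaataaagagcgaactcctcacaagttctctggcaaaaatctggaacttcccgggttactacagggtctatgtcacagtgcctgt
All 4 members, and Gbp2b too, held an ISRE match, in each case on the minus strand. The match began 165 bases before the start site in Gbp5 (TTTCAATTTC), 53 bases before it in Gbp7 (TTTCAGTTTC), 59 bases before it in Gbp2 and 137 bases before it in Gbp2b (both TTTCACTTTC). Gbp3 held a pair of overlapping matches, at 45 and 39 bases before the start site (TTTCAGTTTC and TTTCTATTTC). A second start site of Gbp3, at chr3:142560106-142560405, had no match in its window. Among 32851 promoter windows of the same length in RefSeq, 3.44% held an ISRE match, and among their 27025 genes 3.99% held one in any window. The element was picked for a family known to answer to interferon, so the matches are a description and not a test. The interferon-γ activated site (GAS), searched on both strands as TTCNNNGAA, was matched 2 times each in Gbp5 (TTCTGGGAA, TTCTCAGAA) and Gbp7 (TTCCAGGAA, TTCTCAGAA) and in no window of Gbp2, Gbp3 or Gbp2b, against 8.3% of all windows. A match is a string of letters and not an observed binding site. Gbp4, Gbp6, Gbp8, Gbp9, Gbp10 and Gbp11 had no window in the table.

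All 10 Gbp genes were higher in the IPF group than in the sham group. Gbp10 and Gbp11, with a sham mean below the filter of 0.1 FPKM, were tested only because their IPF values were higher, so they are left out of the counts and the median in this paragraph. For each of the other 8 members all 5 IPF libraries lay above all 5 sham libraries, whereas groups separated upward in this way for 4.52% of the genes tested. With limma on log2(FPKM + 0.1) and Benjamini-Hochberg adjustment over all genes tested, these 8 rose with an adjusted p under 0.05, beside 3.71% of all genes that rose and 2.14% that fell. Their log2 fold changes ran from 0.56 (Gbp2) to 1.64 (Gbp6) with a median of 0.81, and the median of all genes tested was 0.0016. Gbp4 and Gbp6 passed both an adjusted p under 0.05 and a log2 fold change above 1, limits that 0.68% of genes passed upward. With a pseudocount of 1 neither passed both (fold changes of 0.90 and 0.95). The pseudocount of 0.1 shrinks the fold change of genes with low FPKM, and in bulk tissue more cells of a type and more RNA per cell cannot be told apart.

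**Figure D1:**
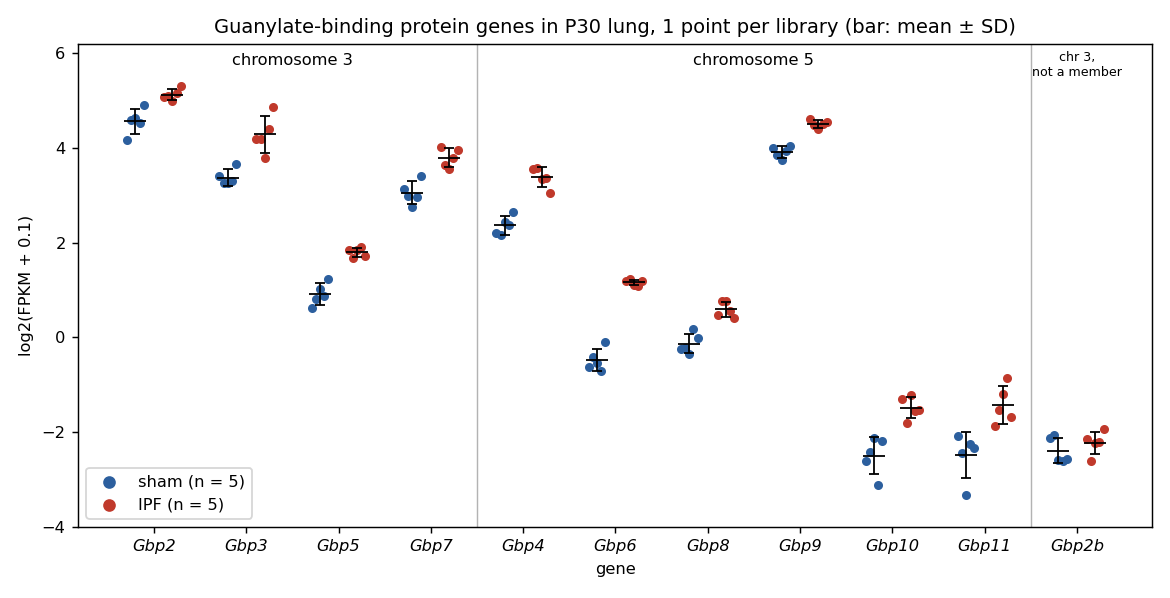
Level of each Gbp gene on the log2(FPKM + 0.1) scale in the 5 sham (blue) and 5 IPF (red) libraries, 1 point per library, with the group mean and SD as bars. The groups are apart for the 8 members whose sham mean reached the filter. Gbp10 and Gbp11 passed the filter only through their IPF values. The points of Gbp2b, on the right and at few reads, overlap.

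Gbp2 encodes a prenylated GTPase that coats parasite vacuoles and was the most abundant member. It measured 33.8, 34.2, 31.7, 35.8 and 39.5 FPKM in IPF replicates 1 to 5, and 17.8, 24.2, 24.8, 23.0 and 29.9 FPKM in sham replicates 1 to 5. The lowest IPF library lay just above the highest sham library, which was replicate 5. The means were 35.02 ± 2.89 and 23.95 ± 4.33 FPKM (SD, n = 5 each), and the log2 fold change was 0.56 with a standard error of 0.12 (adjusted p = 0.0173 from limma).

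Gbp3, a member of the cluster needed for the caspase-11 response to bacteria, was at 18.3, 18.1, 13.8, 21.2 and 29.0 FPKM in the IPF libraries. The sham libraries held 10.6, 9.44, 9.44, 9.75 and 12.6 FPKM of it. The sham values were close together and the IPF values wide apart, with IPF replicate 5 at the top and IPF replicate 3 nearest to the sham range. From 10.4 ± 1.33 to 20.1 ± 5.63 FPKM (SD, n = 5 each), the log2 fold change was 0.91 with a standard error of 0.17 (adjusted p = 0.00874 from limma).

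Gbp5, which promotes assembly of the NLRP3 inflammasome, was present at a lower level, at 3.48, 3.12, 3.49, 3.66 and 3.18 FPKM in the IPF libraries. In the sham libraries it was at 1.44, 1.66, 1.92, 1.75 and 2.26 FPKM. The IPF libraries were tightly grouped, and sham replicate 5 was again the highest of its group. The means of 3.39 ± 0.230 and 1.81 ± 0.310 FPKM (SD, n = 5 each) gave a log2 fold change of 0.88 with a standard error of 0.12 (adjusted p = 0.00188 from limma).

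Gbp7, a member linked to assembly of the phagocyte oxidase, was at 16.2, 12.3, 11.7, 13.8 and 15.6 FPKM in the IPF libraries and at 8.75, 7.80, 6.70, 7.67 and 10.6 FPKM in the sham libraries. The groups were separated by a narrow gap between IPF replicate 3 and sham replicate 5. The mean was 13.9 ± 1.95 FPKM in the IPF group and 8.30 ± 1.46 FPKM in the sham group (SD, n = 5 each), with a log2 fold change of 0.74 and a standard error of 0.13 (adjusted p = 0.00649 from limma).

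On chromosome 5 the most abundant member was Gbp9, one of the proteins found on parasite vacuoles. Its FPKM was 24.5, 22.3, 21.0, 22.6 and 23.4 in the IPF libraries and 15.9, 14.4, 13.3, 15.3 and 16.4 in the sham libraries. Both groups were narrow and well apart. The change from 15.1 ± 1.23 to 22.8 ± 1.30 FPKM (SD, n = 5 each) amounted to 0.60 on the log2 scale, with the smallest standard error of the family, 0.067 (adjusted p = 0.000811 from limma).

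Gbp4, described as a restraint on IRF7-driven interferon production, was at 11.7, 11.9, 10.0, 10.2 and 8.24 FPKM in the IPF libraries. It was at 4.54, 4.37, 5.29, 5.07 and 6.21 FPKM in the sham libraries. Here IPF replicate 5, the library with the most Gbp3, was the lowest of its group. The means of 10.4 ± 1.48 and 5.10 ± 0.728 FPKM (SD, n = 5 each) differed by a log2 fold change of 1.02 with a standard error of 0.12 (adjusted p = 0.000984 from limma), which lies so near the limit of 1 that it fell below it without IPF replicate 1 or 2 or sham replicate 1 or 2, at 0.96 to 0.98. The study also measured Gbp4 by qRT-PCR, and its primer pair is shown because it is the one assay in the study aimed at a single member.
Gbp4 forward: ggagaagctaacgaaggaacaa
Gbp4 reverse: ttccacaagggaatcaccatttt
Both primers matched exactly in 11 annotated mouse transcripts, all of Gbp4, with 136 bases from primer to primer. The family gene with the fewest other mismatches was Gbp11, with 1 in the forward and 5 in the reverse primer.

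Gbp6, another protein of the parasite vacuole, had the largest fold change of the 10 at a pseudocount of 0.1. Gbp11 was above it with a pseudocount of 0.01 (1.97 against 1.78) and both Gbp11 and Gbp10 with limma voom (1.92 and 1.79 against 1.78). It was at 2.18, 2.25, 2.07, 2.03 and 2.19 FPKM in the IPF libraries, from 220 to 233 reads each. The sham libraries held 0.550, 0.646, 0.586, 0.514 and 0.837 FPKM, from 51 to 76 reads each. The IPF libraries were almost level with each other, and the lowest of them was more than 2 times the highest sham library. The ratio of the means, 2.14 ± 0.0914 to 0.627 ± 0.127 FPKM (SD, n = 5 each), was 3.42, and the log2 fold change was 1.64 with a standard error of 0.13 (adjusted p = 7.57e-05 from limma).

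Gbp8, a little studied member, was at 1.30, 1.60, 1.60, 1.37 and 1.23 FPKM in the IPF libraries and 0.740, 0.761, 0.687, 1.03 and 0.895 FPKM in the sham libraries. Sham replicate 4, not replicate 5, was the highest sham library. The log2 fold change was 0.73 with a standard error of 0.14 (means 1.42 ± 0.172 and 0.823 ± 0.138 FPKM, SD, n = 5 each; adjusted p = 0.0116 from limma), on 75 to 104 reads per IPF library and 38 to 59 per sham library.

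Gbp10 and Gbp11 were close to the limit of detection. Gbp10 had 20, 12, 24, 17 and 17 reads in the IPF libraries and 4, 6, 8, 1 and 7 in the sham libraries, or 0.261 ± 0.0558 against 0.0823 ± 0.0456 FPKM (SD, n = 5 each). Gbp11 had 8, 11, 17, 22 and 10 reads in the IPF libraries and 6, 4, 0, 5 and 4 in the sham libraries, or 0.282 ± 0.110 against 0.0854 ± 0.0515 FPKM (SD, n = 5 each). Neither gene overlapped between groups, a separation favoured by the filter, which both passed only through their IPF values. Neither passed the test. The log2 fold change of Gbp10 was 1.01 with a standard error of 0.27 (adjusted p = 0.0530 from limma), and that of Gbp11 was 1.06 with a standard error of 0.31 (adjusted p = 0.0786 from limma). Gbp10 passed with limma voom on the recovered reads (1.79, adjusted p = 0.0174) and with no variance trend (adjusted p = 0.0199), and Gbp11 passed with neither. Their fold changes depended on the pseudocount, at 0.22 and 0.24 with 1 and 1.74 and 1.97 with 0.01, and Gbp11 was at 1.92 with limma voom. The 0 reads of Gbp11 in sham replicate 3 allow up to 3, counting error only.

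Gbp2b, the prenylated protein of the chromosome 3 cluster outside the 10, was barely transcribed in either group. It had 6, 3, 6, 6 and 8 reads in the IPF libraries and 6, 7, 3, 3 and 3 in the sham libraries, and only IPF replicate 5 lay above all sham libraries. Its log2 fold change was 0.16 with a standard error of 0.27 (adjusted p = 0.799 from limma). A change of the size seen in Gbp2, its neighbour, was within about 2 standard errors of this value, so a difference between the genes was not detectable at this depth. The pseudogene Gbp2-ps had 0 reads in all 10 libraries.

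**Figure D2:**
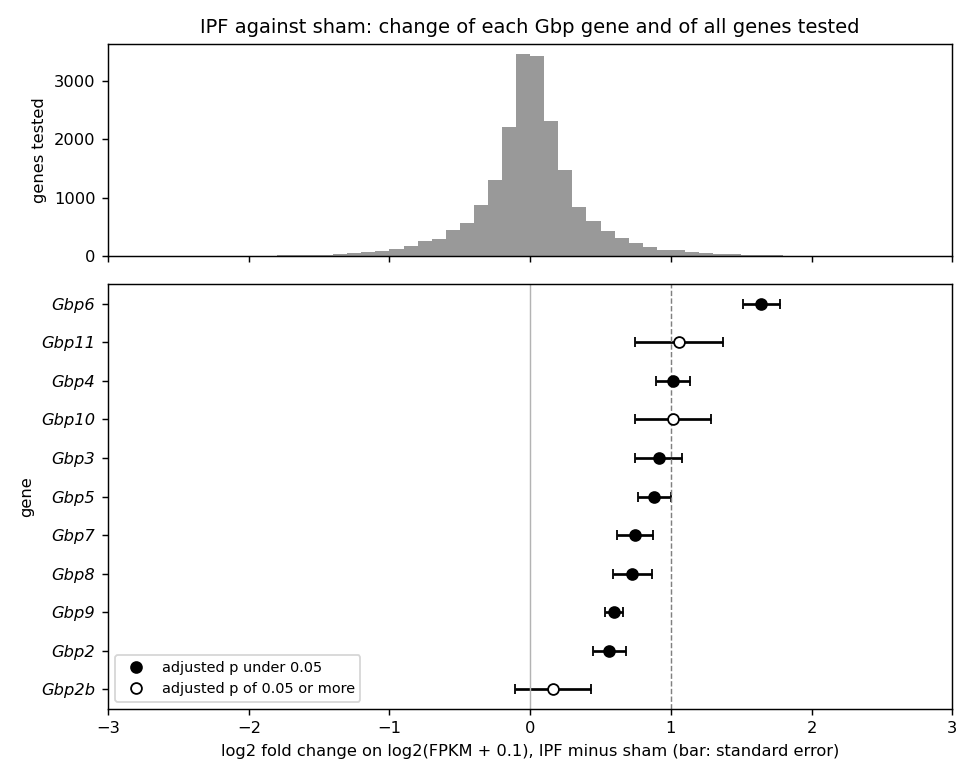
The upper panel counts the 20448 genes tested by log2 fold change, IPF minus sham, on log2(FPKM + 0.1) in bins of 0.1, with values beyond the axis in the end bins. The lower panel shows the 10 Gbp members and Gbp2b with standard errors, filled where the adjusted p was under 0.05, and the members lie between 0.56 and 1.64, to the right of most genes.

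Several members share sequence or position, which bears on how reads were divided among them. Gbp4, Gbp8 and Gbp9 overlap on the same strand in the deposited table and begin within 105139539 to 105139586. Gbp6 and Gbp10 are near copies. Of all 150-base stretches in the annotated transcripts of Gbp6, 47.8% also occurred in a transcript of another gene, 34.1% in Gbp10. For Gbp10 the share was 54.6%, with 44.6% in Gbp6. Both genes also share exons with Gm43302 (ENSMUSG00000079362), a gene model that spans them and held 0 or 1 read in each library. The values of Gbp6 and Gbp10 are therefore uncertain as separate genes. For the other 8 members the share was at most 9.64% (Gbp7), and it was 0 for Gbp2, Gbp3 and Gbp8. These shares come from GENCODE transcripts and not from the annotation behind the deposited positions. The share of 0 for Gbp8 therefore does not cover its overlap with Gbp4 and Gbp9 in those positions.

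The order of levels within the family was similar in both groups. In the sham group Gbp2 stood above Gbp9, followed by Gbp3 and Gbp7, whose ranges overlapped, then Gbp4 and Gbp5, then Gbp8 and Gbp6, which overlapped, and last Gbp11 and Gbp10, which overlapped too. In the IPF group Gbp9 overlapped with Gbp3, Gbp3 with Gbp7, Gbp7 with Gbp4 and Gbp11 with Gbp10, and Gbp6 stood above Gbp8 with no overlap. Gbp2 supplied 36.1% ± 3.92 of the summed FPKM of the family in the sham group and 32.0% ± 1.03 in the IPF group (SD, n = 5 each), and these ranges overlapped. The share of Gbp6 was 0.942% ± 0.0975 in the sham group and 1.96% ± 0.166 in the IPF group (SD, n = 5 each), from 0.801% to 1.05% against 1.79% to 2.15%. The family sum was therefore made up mainly of Gbp2, Gbp9, Gbp3 and Gbp7 in either group.

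The summed FPKM of each cluster was used to ask whether the rise was shared by both chromosomes. The chromosome 3 members summed to 71.8, 67.8, 60.7, 74.5 and 87.2 FPKM in the IPF libraries and to 38.6, 43.1, 42.9, 42.2 and 55.3 FPKM in the sham libraries. The chromosome 5 members summed to 40.1, 38.5, 35.4, 36.9 and 35.6 FPKM in the IPF libraries and to 21.9, 20.3, 20.02, 22.01 and 24.6 FPKM in the sham libraries. In both clusters all IPF libraries lay above all sham libraries. The sum was 1.63-fold higher on chromosome 3 (72.4 ± 9.75 against 44.4 ± 6.37 FPKM) and 1.72-fold higher on chromosome 5 (37.3 ± 2.03 against 21.8 ± 1.82 FPKM; SD, n = 5 each), or 0.71 and 0.78 on the log2 scale. The ratio of the chromosome 5 to the chromosome 3 sum was 0.523 ± 0.0721 in the IPF group and 0.494 ± 0.0501 in the sham group (SD, n = 5 each). This difference between the clusters, 0.07 on the log2 scale, was within the spread between libraries (exact permutation test, two-sided, p = 0.548). It was 0.26 without Gbp2 and Gbp9, the most abundant gene of each cluster (p = 0.190 by the same exact permutation test), and 0.03 to 0.16 when a library was left out. The mean of the log2 values in place of the sum gave 0.23 (p = 0.0714 by the same exact permutation test), a version in which Gbp10 and Gbp11 weigh as much as any other member. Both lie on chromosome 5 and passed the filter only through their IPF values. That choice favours a difference in this direction, so nothing is concluded from this version. By single genes the fold changes ranged from 0.56 to 0.91 on chromosome 3 and from 0.60 to 1.64 on chromosome 5.

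**Figure D3:**
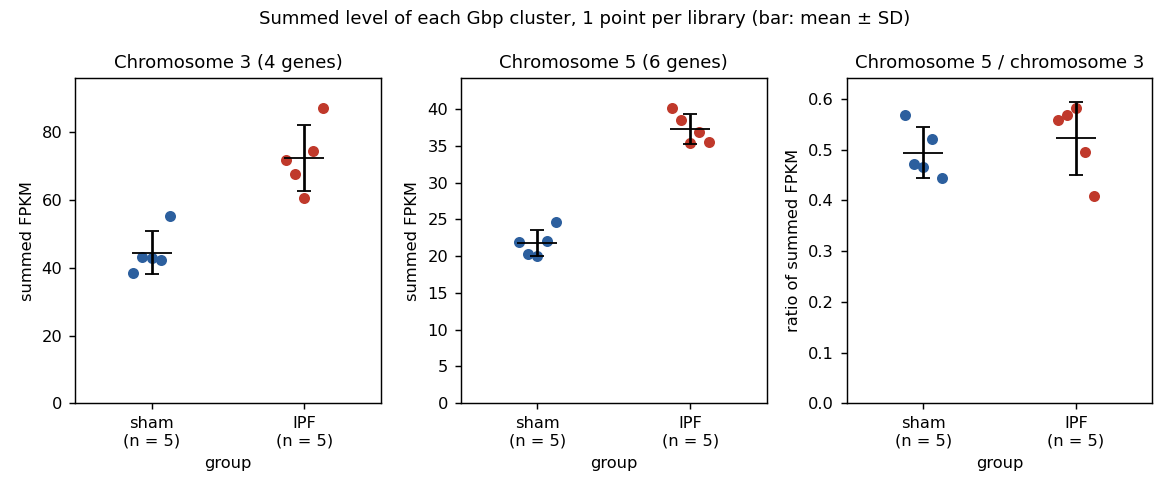
Summed FPKM of the 4 chromosome 3 members and the 6 chromosome 5 members, and the ratio of the sums, in each of 5 sham (blue) and 5 IPF (red) libraries, with means and SD as bars. Both sums separate the groups, with IPF means of 72.4 and 37.3 FPKM, while the ratios overlap.

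Among the genes beside the clusters 1 was called, where over all genes tested 3.71% rose and 2.14% fell. Within 200000 bases of the chromosome 3 cluster 6 other genes were tested, Gbp2b among them, 0 with an adjusted p under 0.05 by limma or limma voom and 1 (Pkn2, lower) with an unadjusted p under 0.05. Around the chromosome 5 cluster 6 were tested and 1 rose, Abcg3, an ATP-binding cassette gene next to Gbp8, with a log2 fold change of 0.58 (adjusted p = 0.0311 from limma), and 2 were higher at an unadjusted p under 0.05, Abcg3 and Lrrc8b.

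Within the groups, sham replicate 5 stood out, with all 10 members above the sham mean by 0.27 on average on the log2 scale. After each group's mean was removed, 25 of the 28 pairs among the 8 members other than Gbp10 and Gbp11 had a positive Pearson r over the 10 libraries, with a median of 0.30. This rested on that library. Without it, an alternative chosen after seeing the data, 10 of the 28 pairs were positive and the median was -0.13 over 9 libraries. These values share the libraries and their scaling and are a description. Over all 10 libraries the highest r was 0.92 (Gbp7 and Gbp9, on different chromosomes). With the few reads of Gbp10 and Gbp11 included, 33 of 45 pairs were positive with a median of 0.18, and 9 of the 12 negative pairs held Gbp10 or Gbp11. Of 13437 other genes whose mean FPKM reached 1, those whose within-group deviations were most like the family mean included Pik3ap1, Mtdh, Pja2 and Hif1a, with r from 0.923 to 0.930 over the 10 libraries and from 0.658 to 0.894 without sham replicate 5. None of these 4 passed the test between groups.

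**Figure D4:**
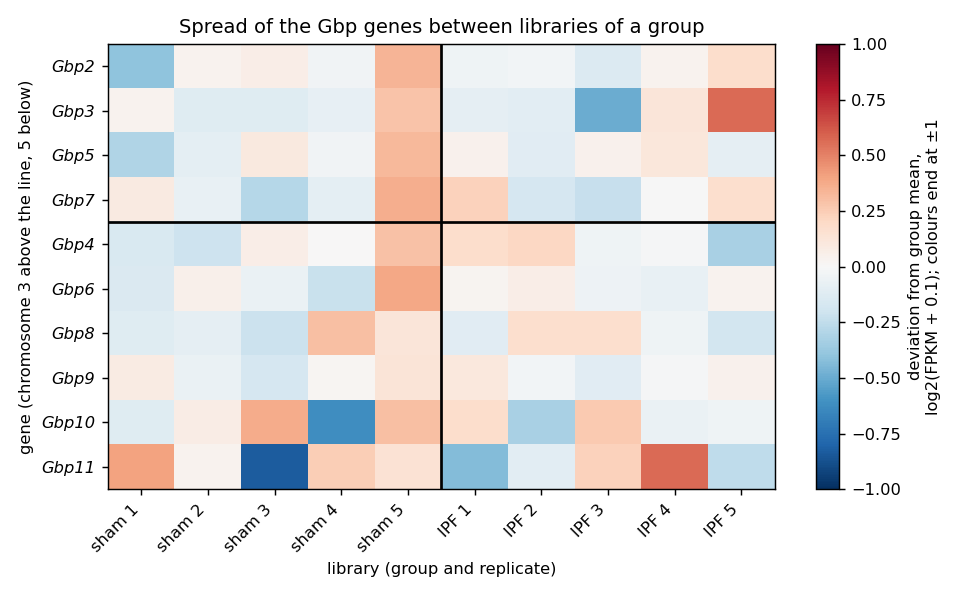
Deviation of each member from its own group mean on log2(FPKM + 0.1) in each library, red above and blue below, with colours ending at 1 in either direction. The column of sham replicate 5 is red for all 10 members, with a mean of 0.27, and no IPF library has a column of a single colour.

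The genes around the Gbp proteins in their pathway were read from 7 lists. Of 76 genes listed, 67 were tested, 20 rose and 1 fell with an adjusted p under 0.05 from limma. Over all genes tested 3.71% rose and 2.14% fell. The ligands were near or at 0. Ifng, encoding interferon-γ, had 0.104 ± 0.0662 FPKM in the IPF group and 0.0600 ± 0.110 FPKM in the sham group (SD, n = 5 each), with overlapping values, and was below the filter. Ifna2, Ifna4, Ifne, Ifnl2 and Ifnl3 had 0 reads in every library. Of 7 tested ligands and receptors 2 rose, both receptor chains, Ifngr2 of the interferon-γ receptor by 0.33 and Ifnar2 of the type I receptor by 0.22 on the log2 scale (adjusted p = 0.0311 for each from limma). These calls were not stable. Only 0 or 1 gene of the list was called without IPF replicate 1, 2, 3 or 4 or sham replicate 2, 3, 4 or 5.

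Among 16 signaling and transcription factor genes 8 rose, with a median log2 fold change of 0.35 beside 0.0016 for all genes. Irf1, the factor that binds ISRE sequences after interferon-γ, was at 33.4, 33.4, 32.1, 34.8 and 33.1 FPKM in the IPF libraries and at 23.7, 27.2, 25.5, 27.8 and 25.9 FPKM in the sham libraries. Its groups were apart, and its log2 fold change was 0.36 with a standard error of 0.054 (adjusted p = 0.00344 from limma). Genes of the type I interferon response rose as well, Stat2 by 0.32 and Irf9 by 0.49, and so did Irf7 by 0.82 and Batf2, an IRF1 partner, by 0.72 (adjusted p from 0.0135 to 0.0462 from limma). The feedback inhibitors Socs1 and Socs3 rose by 1.26 and 0.35 on the log2 scale (adjusted p = 0.0142 and 0.0254 from limma). Jak1, Jak2, Tyk2, Stat3, Irf2, Irf3, Irf8 and Usp18 did not pass. Without IPF replicate 2 or sham replicate 2, 5 of the 16 genes were called in place of 8.

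The immunity-related GTPases load onto the same vacuoles as the Gbp proteins. All 7 tested genes of this list rose, with log2 fold changes of 0.71 for Irgm1, 0.75 for Irgm2, 0.83 for Igtp, 0.98 for Iigp1, 1.07 for Ifi47, 1.13 for Tgtp2 and 1.21 for Tgtp1, each with an adjusted p of at most 0.00695 from limma. Their median of 0.98 stood beside 0.81 for the 8 Gbp members other than Gbp10 and Gbp11. Among 11 other genes of the dynamin superfamily 2 rose, the antiviral Mx1 by 1.06 (adjusted p = 0.0118) and the very large interferon-inducible GTPase Gvin1 by 1.03 (adjusted p = 0.0201, both from limma), while the dynamins and atlastins did not pass, and the median of the list was -0.02. Without IPF replicate 1 or sham replicate 3, 1 gene of this list was called in place of 2.

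Genes that load or process Gbp proteins, or act downstream of them, are read beside the 3.71% of all genes that rose and the 2.14% that fell. Of 10 genes of the ubiquitin-like conjugation that brings Gbp and Irg proteins to vacuoles, such as Atg5, Atg7 and Gabarapl2, 0 had an adjusted p under 0.05 by limma or limma voom, and 2 had an unadjusted p under 0.05, both higher. Of 6 genes for prenylation and trimming of the CaaX tail found on Gbp2 and Gbp5, 1 fell, the protease gene Zmpste24, by 0.25 on the log2 scale (adjusted p = 0.0178 from limma), and 0 were called without sham replicate 2. Of 10 inflammasome genes 1 rose, Casp1, by 0.49 (adjusted p = 0.0406 from limma), and 0 were called with limma voom or without IPF replicate 1, 3 or 4 or sham replicate 1, 3, 4 or 5. The count was also 0 with no variance trend or no filter on low values. It was 2 without IPF replicate 5 or with a mean FPKM of at least 1. Il1b, one of the cytokines caspase-1 matures, had a log2 fold change of 1.31 and did not pass (adjusted p = 0.0635 from limma). It was at 7.71 FPKM in IPF replicate 5, at 1.38 to 2.47 FPKM in the other IPF libraries and at 0.787 to 1.17 FPKM in the sham libraries.

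**Figure D5:**
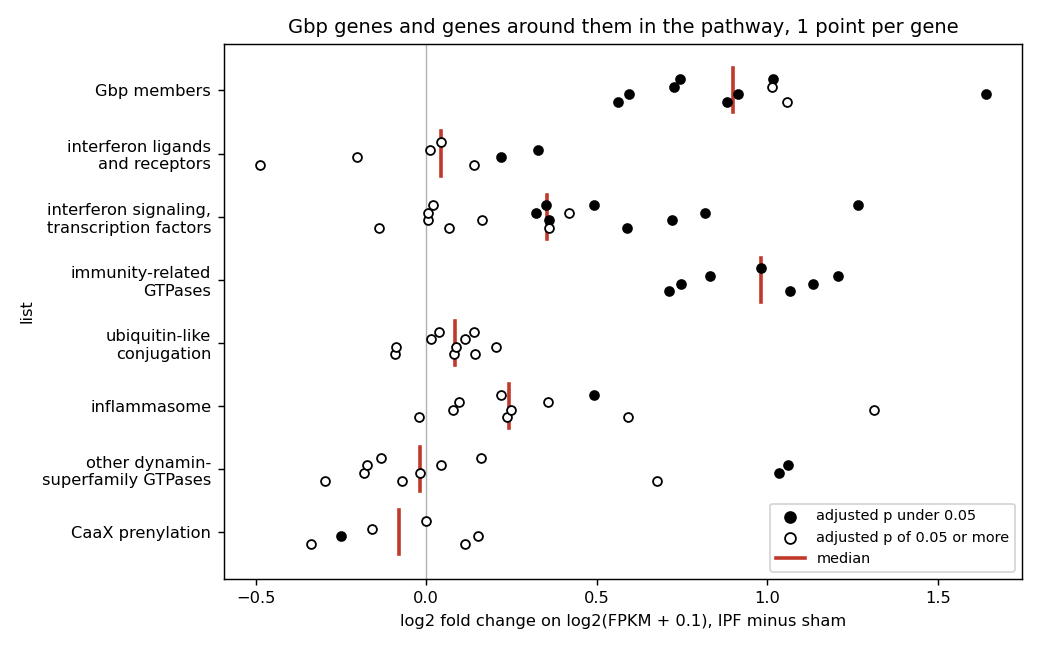
Log2 fold change, IPF minus sham, on log2(FPKM + 0.1) for each tested gene of the Gbp family and of the 7 pathway lists, filled where the adjusted p was under 0.05, with the median of each row in red. The Gbp members and the immunity-related GTPases lie to the right of 0 throughout, where the median of 0.90 for the Gbp row includes Gbp10 and Gbp11 and that of the GTPases is 0.98.

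Other features of the lungs moved with the groups, and their part in the rise of the Gbp genes was not tested. The counts here are read beside the 3.71% of all genes tested that rose and the 2.14% that fell. All 5 B cell markers rose, with a summed level of 17.1 to 28.0 FPKM in the sham group and 31.7 to 47.8 FPKM in the IPF group. For NK cells 4 of 8 markers rose (9.27 to 15.1 against 18.9 to 27.7 FPKM) and for T cells 2 of 10 (19.4 to 28.9 against 30.04 to 38.4 FPKM). For monocytes 5 of 6 rose (306 to 343 against 237 to 383 FPKM, a sum set mainly by Ace) and for endothelium 1 of 6 (995 to 1033 against 1125 to 1271 FPKM). With limma voom 1 T cell marker and 2 endothelial markers rose. The endothelial sum was moved mainly by Cldn5, at 238 to 340 FPKM in the sham group and 432 to 481 FPKM in the IPF group. Pecam1, Cdh5, Tie1 and Kdr overlapped between groups, and Tek did not. Of 6 neutrophil markers 0 passed with limma or limma voom and 5 had an unadjusted p under 0.05, all higher (15.2 to 72.4 against 52.6 to 300.4 FPKM). The top of the IPF range was IPF replicate 5 alone, with S100a9 at 185 and S100a8 at 78.9 FPKM. In the other IPF libraries these were at 29.3 to 41.2 and 14.3 to 20.4 FPKM. Of the markers of alveolar macrophages, dendritic cells, alveolar epithelium and ciliated cells none passed with limma. The 6 alveolar epithelial markers, which define the tissue, summed to 13360 to 20938 FPKM in the sham group and 17623 to 19552 FPKM in the IPF group. Of 14 circadian clock genes 10 fell and 3 rose. Arntl was at 3.31 to 6.85 FPKM in the IPF group and 0.311 to 0.452 FPKM in the sham group. Nr1d1 was at 1.03 to 4.28 FPKM in the IPF group and 31.0 to 42.6 FPKM in the sham group. The state of the clock therefore divided with the groups and, like sex, cannot be told apart from surgery. Depth was 16250190 to 19026843 reads on genes in the IPF group and 15483046 to 17818542 in the sham group, and sham replicate 1 was least like the other libraries.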

How the data were processed

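Lung mRNA of 10 mice was analysed, with groups taken from the sample titles in the labels (5 IPF, 5 sham). According to the methods, Fastp was used for trimming, HISAT2 for alignment and StringTie for quantification. The deposited value is 1 FPKM per gene and sample. The methods name GRCm39 and the KAPA kit, the labels the NEBNext kit and GRCm38, and the submitters' processing notes also name Bowtie 0.12.2. The table's positions are those of GRCm38, since the last gene of chromosome 1 ends at 195323493. Reads were recovered from the steps of FPKM multiplied by gene length (tolerance 0.02 of a read). In every library 100% of the values above 0 lay on whole reads, and how reads on overlapping genes were assigned is not stated. All sample columns were mapped.

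The test was limma 3.58.1 (R 4.3.3; variance trend, no covariate) on log2(FPKM + 0.1), over genes whose mean FPKM reached 0.1, with Benjamini-Hochberg adjustment, after a test on simulated data. The exact permutation test used all 252 assignments of 5 of 10 libraries. No p is given for the cluster sums, because the members, like the lists, were chosen with earlier results of these data known. Named were all members, list genes with an adjusted p under 0.05, Ifng, Irf1 and Gbp2b whatever their values, and genes most like the family; some genes under this rule are not reported here. Other genes were named after their values were seen. Litters are not stated, so p-values measure the spread between these libraries, which differed by more than sampling noise (chi-square per degree of freedom of 4.78 or more). Deviations of same-numbered libraries were at most weakly correlated (r from -0.0204 to 0.0953). Promoters came from RefSeq and transcripts from GENCODE. Python 3.11.15, pandas 2.3.3 and numpy 2.4.6 were used for tables. The alternatives are given in the closing section.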

Additional observations from a re-analysis of the deposited data

Results flagged for a closer look

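The summed FPKM of the chromosome 3 members in sham replicate 5 was 55.3, apart from the other 4 sham libraries, which lay between 38.6 and 43.1. The gap was 0.730 of the range of the group, above Dixon's 95% critical value of 0.71 for 5 samples. It was the only one of 26 group values examined to stand apart in this way, and chance flags about 1 group in 20. Even so, sham replicate 5 lay below the lowest IPF library, at 60.7 FPKM, and leaving it out raised the difference between groups.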

How the results depend on the processing

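Over 18 alternatives, 178 fold changes of members were recomputed. None reversed and none of the 8 called members lost its call, and in 176 the side of the threshold was kept as well. The other 2 concern Gbp10, which passed with no variance trend (log2 fold change 1.01, adjusted p = 0.0199) and with limma voom on the recovered reads (1.79, adjusted p = 0.0174). The number of members with an adjusted p under 0.05 was 8 in every fit that left out a library. The number past both limits was 0 with a pseudocount of 1, 3 with limma voom or no variance trend, Gbp10 (tested only through its IPF values) being the third, and 1 to 3 when a library was left out. It was 1 without IPF replicate 1 or 2 or sham replicate 1 or 2, where Gbp4 fell under a log2 fold change of 1, and 3 without IPF replicate 3, where Gbp3 passed it. Over all genes, 74 were past both limits with a pseudocount of 1, 154 with a mean FPKM of at least 1, and 171 to 299 when a library was left out, against 233. The count with an adjusted p under 0.05 was 1196 and ran from 775 (without IPF replicate 4) to 1620 (without IPF replicate 5). For the lists 15 to 24 genes were called when a library was left out, against 21. Of the immunity-related GTPases 7 of 7 were called in every fit that left out a library. The other dynamin genes had 1 call in place of 2 without IPF replicate 1 or sham replicate 3, and the prenylation genes 0 without sham replicate 2 and 2 without IPF replicate 5. The cause of these shifts was not tested.

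The labels give same-numbered libraries no link beyond the number. The correlation of their deviations ran from -0.0204 to 0.0953 and the best partner had the same number in 3 of 5 cases. So few libraries cannot tell whether they were paired. With the replicate number as a block, 8 members were still called and 1045 genes in all, with 5 of the signaling and transcription factor genes in place of 8. For the cluster sums the block left the differences at 0.71 and 0.78 on the log2 scale, and 5 pairs are too few for a sign-flip test to pass 0.05, so that its outcome says nothing about stability.

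Depth limits Gbp10, Gbp11, Gbp2b and Ifng, where a few reads decide a value.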
